A study of Homo sapiens with 4 samples.

Results

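The genes described here are the classical histone deacetylases (HDACs) other than HDAC6, that is HDAC1, HDAC2, HDAC3, HDAC4, HDAC5, HDAC7, HDAC8, HDAC9, HDAC10 and HDAC11. Their probes were found by gene symbol in the annotated table of the arrays, without use of any measured value, which gave 10 of 34755 genes, 19 of 58201 probes and 28 of 60901 spots. The cells were SUM149, a line established from an inflammatory breast cancer. They were untreated, or exposed to 2.5 uM of Ricolinostat (ACY1215), a hydroxamic acid that inhibits HDAC6 more strongly than other deacetylases, for 3, 6 or 12 h. RNA of each group was hybridised to 1 two-colour Agilent array, with the sample in Cy5 and, in Cy3, a common reference labelled as a mixture of treated and untreated SUM149 cells. The comparison asks whether the transcripts of the other deacetylases changed while the drug was present.

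Each value below rests on 1 array, so no test between times was possible, no p-value is given, and no array of vehicle-treated cells was analysed here. Time in culture and exposure to the drug cannot be told apart. The number of arrays limits the precision. The median Cy5 signal of a spot lay between 36 and 40 units on the 4 arrays, over a local background of 24. All 8 markers expected in a basal line (KRT5, KRT14, KRT17, EGFR, CD44, VIM, EPCAM and CDH1) were well above background on the 4 arrays, and PGR was not on any. ESR1, with Cy5 signals of 172 to 262 units, had 2 of its 3 probes well above background on all 4. Areas of damage, where flagged spots or aberrant reference signals were dense, covered 3.33% of the untreated array, 4.72% of the 3 h array, 0.186% at 6 h and 0.00821% at 12 h. They touched HDAC4 on the untreated array, and HDAC3 and 1 dim probe of HDAC9 on the 3 h array.

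Histone deacetylases remove acetyl groups from lysines and use a zinc ion to do so. Class I (HDAC1, HDAC2, HDAC3 and HDAC8) is mainly nuclear, and HDAC1, HDAC2 and HDAC3 act as the catalytic subunits of corepressor complexes. Class IIa (HDAC4, HDAC5, HDAC7 and HDAC9) has little deacetylase activity of its own, binds MEF2 transcription factors, and moves to the cytoplasm when kinases phosphorylate it and 14-3-3 proteins bind it. HDAC10 shares class IIb with HDAC6 and removes acetyl groups from polyamines, and HDAC11, the only member of class IV, removes fatty acyl groups from lysines.

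Sequences are shown for HDAC7, which had the lowest changes, for HDAC3, which had the highest, and for HDAC10, the other gene that stayed below 0 under every way of processing the arrays. Each is the 250 bases before the gene's start in RefSeq (GRCh38.p14), read 5′ to 3′ on the gene's minus strand, at chr12:47819904-47820153 for HDAC7, chr5:141636850-141637099 for HDAC3 and chr22:50251266-50251515 for HDAC10. Capitals mark the GC box (letters GGGCGG) and the CCAAT box on either strand.
HDAC7: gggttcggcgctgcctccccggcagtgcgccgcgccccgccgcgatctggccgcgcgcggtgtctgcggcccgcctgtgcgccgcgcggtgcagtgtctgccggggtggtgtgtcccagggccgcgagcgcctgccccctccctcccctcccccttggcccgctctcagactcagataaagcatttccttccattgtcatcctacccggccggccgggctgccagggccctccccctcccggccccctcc
HDAC3: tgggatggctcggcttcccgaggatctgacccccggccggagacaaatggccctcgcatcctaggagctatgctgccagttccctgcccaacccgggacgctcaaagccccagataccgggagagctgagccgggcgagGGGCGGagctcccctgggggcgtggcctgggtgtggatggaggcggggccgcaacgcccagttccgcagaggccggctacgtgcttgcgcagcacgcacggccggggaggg
HDAC10: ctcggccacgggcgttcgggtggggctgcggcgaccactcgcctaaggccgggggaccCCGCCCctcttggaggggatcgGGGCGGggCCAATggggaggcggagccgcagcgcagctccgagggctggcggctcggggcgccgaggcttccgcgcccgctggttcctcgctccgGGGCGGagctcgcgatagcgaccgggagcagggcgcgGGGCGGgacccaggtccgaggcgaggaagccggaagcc
The HDAC7 window held 28 CpG dinucleotides and none of the motifs searched on both strands, which were the GC box, the CCAAT box and the TATA box (letters TATAAA). The HDAC3 window held 22 CpG dinucleotides and 1 GC box, and the HDAC10 window 35 CpG dinucleotides, 4 GC boxes and 1 CCAAT box. Among all 35116 promoter windows of this length, 42.6% held a GC box, 32% a CCAAT box and 10.7% a TATA box. A window was matched for 9 of the 10 genes, all but HDAC5. Of the 7 genes with a single window, 4 held a GC box (HDAC1, HDAC3, HDAC10 and HDAC11), 2 a CCAAT box (HDAC1 and HDAC10) and 0 a TATA box. A match describes the letters in the window and does not show that a factor binds there.

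Of the 19 probes, 17 were well above background in both channels on all 4 arrays, and no spot of theirs was saturated. The 2 exceptions were probes of HDAC9. The plot of signals by array shows that the 4 arrays of a probe lay close to each other for most deacetylases, while the brighter HDAC7 probe was highest in untreated cells. So were the dim probe of HDAC10 and the brightest probe of HDAC9. Signals are not compared between probes, since each probe binds with its own strength.

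**Figure D1:**
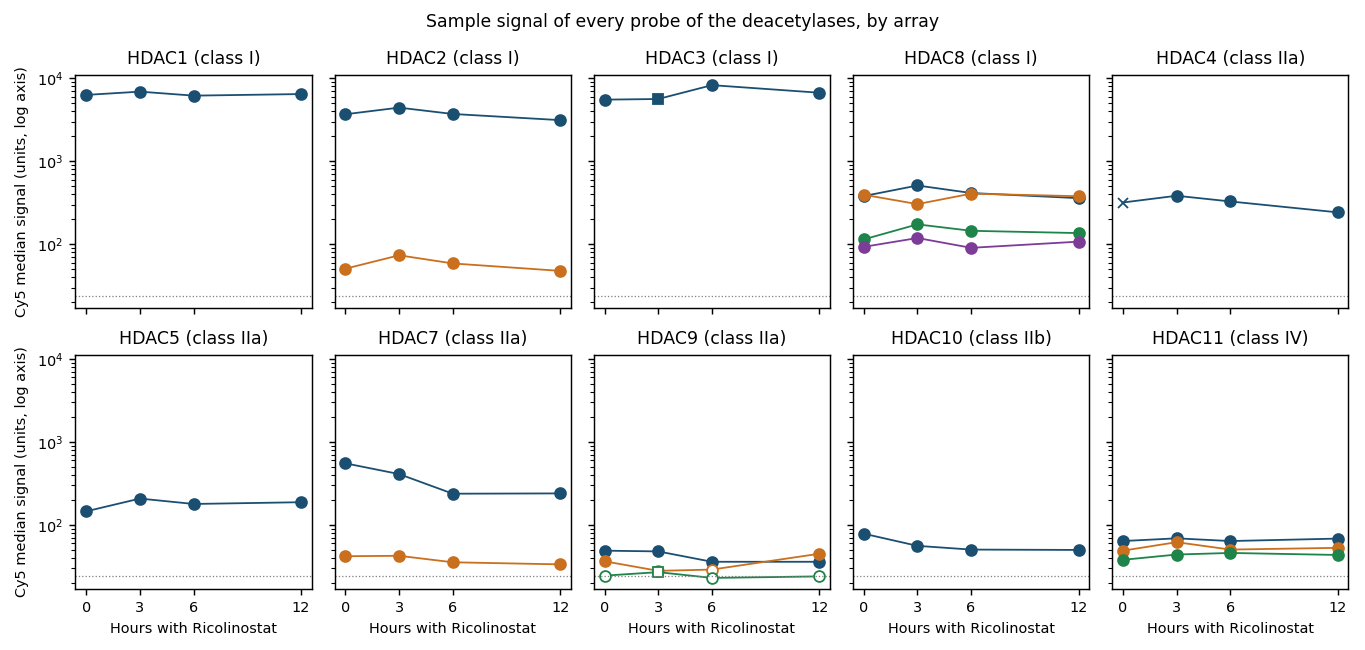
Median Cy5 signal (sample, log axis) of every probe of the 10 deacetylases at 0, 3, 6 and 12 h with Ricolinostat, 1 colour per probe. Filled points were well above background, open points were not, squares lay in a damaged area, the cross marks a spot flagged as an outlier, and the dotted line is the local background of 24 units. HDAC7 went from 553 units in untreated cells to 238 at 6 h.

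A gene was measured at a time when the probe that represents it, the one with the highest mean Cy3 signal, stood well above background in Cy5 and in Cy3, both there and in untreated cells. Changes are log2 Cy5/Cy3 at a time minus the same on the untreated array, after loess normalization. Of the 10 deacetylases 9 had a change at each time, all but HDAC4. None of them reached 2-fold in either direction at 3, 6 or 12 h. Of all genes measured, 1.69% were at least 2-fold higher and 0.366% at least 2-fold lower at 3 h, 2.81% and 0.934% at 6 h, and 2.34% and 1.12% at 12 h. At 1.5-fold, 1 deacetylase was higher at each time (HDAC3, whose 3 h value rests on a damaged spot and was below 0 in the Cy5 channel alone), against 6.87% of all genes at 3 h, 9.4% at 6 h and 8.09% at 12 h. None was 1.5-fold lower at 3 h, and 1 was at 6 and 12 h (HDAC7), against 1.95%, 4.42% and 5.13% of all genes.

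The median change over the 9 genes was 0.08 at 3 h, 0.14 at 6 h and 0.08 at 12 h on the log2 scale, beside 0.01, 0.02 and 0.01 over all genes measured. Changes over 0 were seen in 6 of 9 genes at 3 and 6 h and in 7 of 9 at 12 h, beside 51.4%, 52.7% and 52.5% of all genes measured. After loess all 4 class I genes were over 0 at 6 h (0.14 to 0.71) and at 12 h (0.06 to 0.62), and at 3 h so were HDAC1, HDAC2 and HDAC8, with HDAC3 resting on its damaged spot. That direction depends on the processing, and HDAC8 was over 0 at 3 h in 8 of 11 settings. With each array centred on its median in place of loess, the median of all genes itself moved to 0.08 at 3 h, -0.08 at 6 h and -0.16 at 12 h, and HDAC1, HDAC2 and HDAC8 stood at -0.04, -0.11 and -0.15 at 12 h. Taken relative to that median, the same 3 genes were at 0.11, 0.05 and 0.00.

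**Figure D2:**
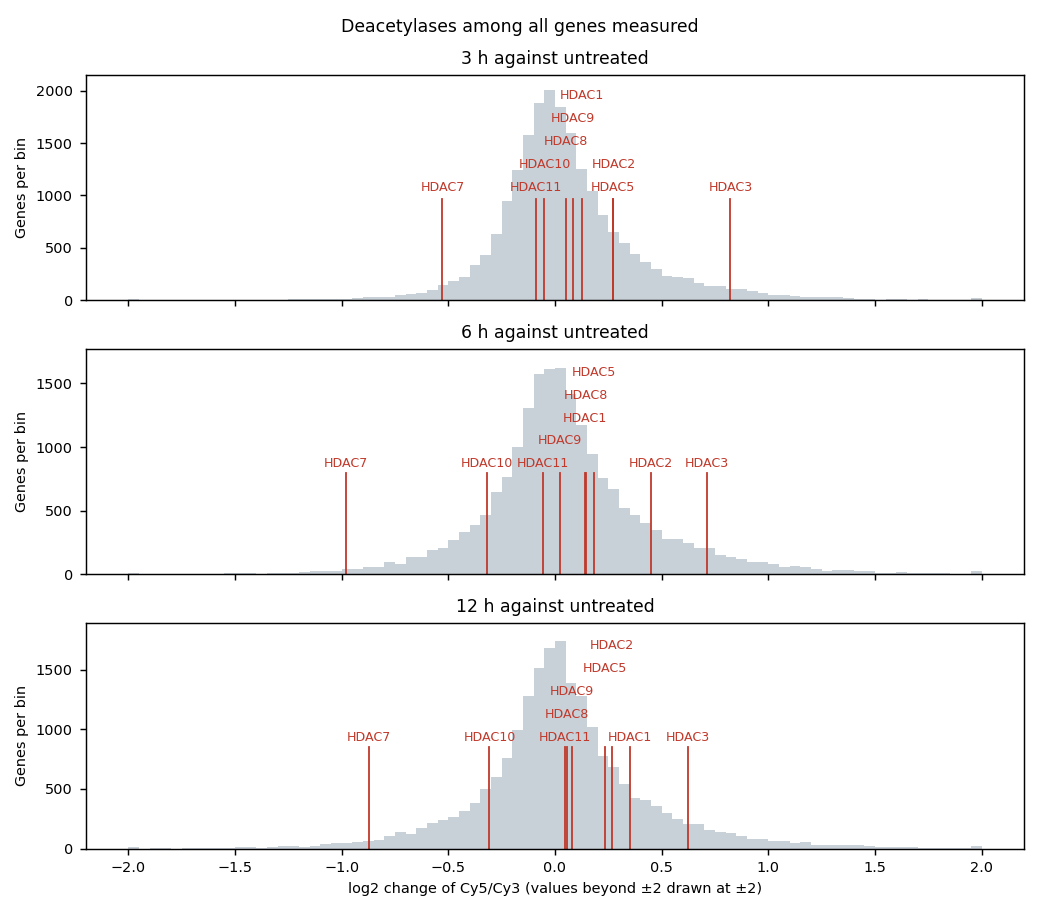
Distribution of the log2 change from untreated over all genes measured (20755 at 3 h, 20333 at 6 h, 20469 at 12 h) in bins, with the 9 deacetylases marked by red lines. HDAC7 lay in the lower tail at the 3 times (-0.53, -0.98 and -0.87), HDAC3 in the upper tail (0.82, 0.71 and 0.62), and the other 7 between them. The 3 h value of HDAC3 rests on a damaged spot.

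The spread between repeated spots of a probe on these arrays gives a technical error. Over the 300 probes with at least 9 spots, its SD on the log2 change was 0.16 at 3 h, 0.12 at 6 h and 0.12 at 12 h. It leaves out differences between cultures, RNA extractions and labellings.

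**Figure D3:**
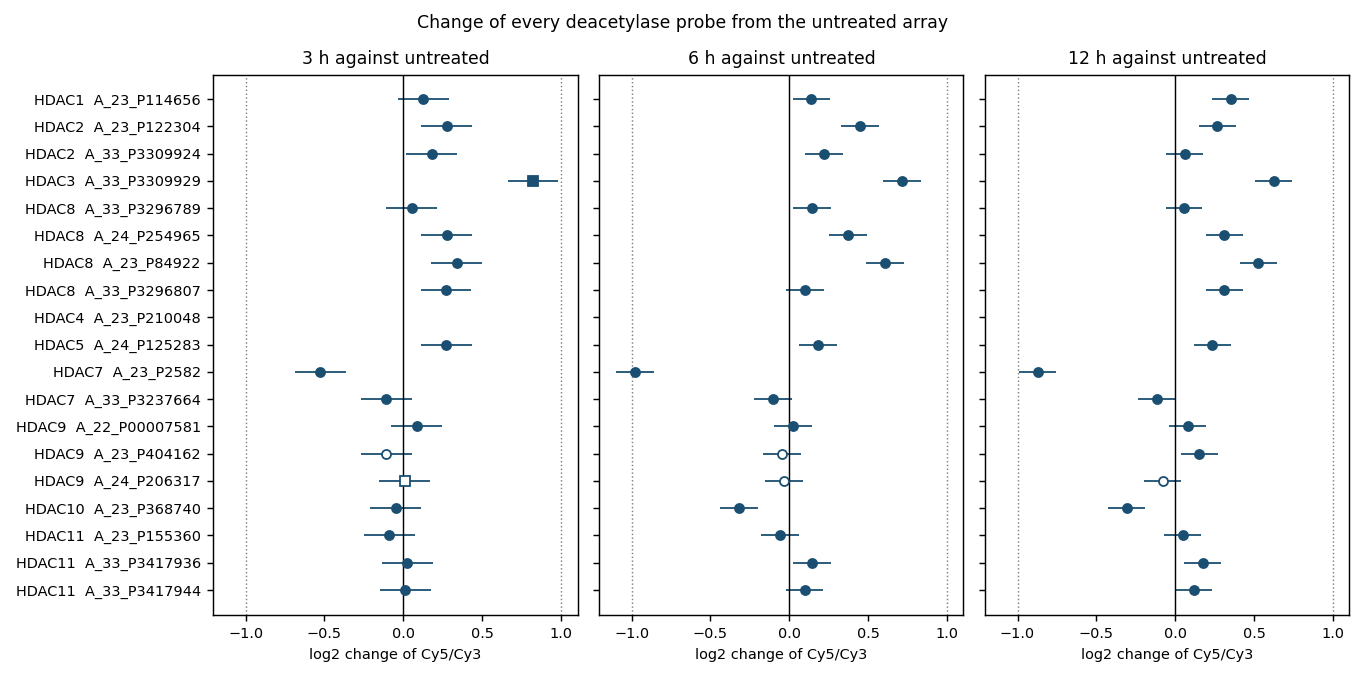
Log2 change of Cy5/Cy3 from the untreated array for each deacetylase probe at 3, 6 and 12 h after loess normalization, with bars of 1 technical SD (0.16, 0.12 and 0.12). Open symbols were not well above background on both arrays, squares lay in a damaged area of 1 of the arrays, dotted lines mark 2-fold, and HDAC4 has no value because its untreated spot was set aside. The main HDAC7 probe sits lowest and HDAC3 highest in each panel.

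HDAC7, a class IIa deacetylase and MEF2 corepressor, had the lowest change at every time. Its probe (A_23_P2582, NM_015401, 1 spot) gave a Cy5 signal of 553 units in untreated cells, 410.5 at 3 h, 238 at 6 h and 240 at 12 h. The Cy3 reference at the same spot was 401.5, 410, 434 and 444 units. The sample signal was thus lower on each treated array, while the reference moved little, and the spot lay outside every damaged area. In RNA of a whole culture, fewer cells with the transcript and less transcript per cell cannot be told apart.

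After normalization the log2 change of HDAC7 was -0.53 at 3 h, -0.98 at 6 h and -0.87 at 12 h, or 0.694, 0.507 and 0.546 of the untreated level. These are 3.27, 8.14 and 7.46 technical SDs from 0. Of all genes measured, 2.57% were lower at 3 h, 0.989% at 6 h and 1.76% at 12 h. Between treated arrays, HDAC7 was at -0.45 from 3 to 6 h, the lowest of the 10 genes, and at 0.11 from 6 to 12 h. Under the 11 ways of processing, the change lay between -1.18 and -0.54 at 6 h and between -1.17 and -0.49 at 12 h, and it reached 2-fold in 6 of them at 6 h and in 1 at 12 h. The values nearest to 0 came from averaging with a second, dim probe (A_33_P3237664, ENST00000459625), whose Cy5 signal was 42, 42.5, 35.5 and 33.5 units and whose change was -0.11, -0.10 and -0.12. Both probes were below 0, and they differed in size.

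HDAC3, the catalytic subunit of a nuclear receptor corepressor complex, had the highest change. Its single spot (A_33_P3309929, NM_003883) gave a Cy5 signal of 5554 units in untreated cells, 5655 at 3 h, 8305 at 6 h and 6728.5 at 12 h. The Cy3 reference was 2740, 1476, 2938.5 and 2932.5 units. On the 3 h array the reference was thus at 0.503 of the median of the other arrays, and 11.0% of the spots around it were defective, while the sample signal at 3 h was close to that of untreated cells.

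The log2 change of HDAC3 was 0.82 at 3 h, 0.71 at 6 h and 0.62 at 12 h. The 3 h value rests on the damaged spot, and from the Cy5 channel alone it was -0.12, the opposite direction. At 6 and 12 h, on arrays whose HDAC3 spot lay outside the damaged areas, the Cy5 channel alone gave 0.78 and 0.61. The range over all ways of processing was 0.51 to 0.78 at 6 h and 0.24 to 0.70 at 12 h, over 0 in 11 of 11. At these times the settings on choice of probe, the dim filter and damaged areas return the reported value, since HDAC3 has 1 probe. The share of all genes with a lower change was 93.4% at 6 h and 92.7% at 12 h. HDAC3 was thus higher at 6 and 12 h in every setting, and its change at 3 h was not measurable from this spot.

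HDAC1, the catalytic subunit of the SIN3, NuRD and CoREST complexes together with HDAC2, was printed in 10 spots of 1 probe (A_23_P114656, NM_004964). The mean Cy5 signal over the spots was 6334 units in untreated cells, 6935 at 3 h, 6207 at 6 h and 6485 at 12 h. The mean log2 change over the 10 spots was 0.13 ± 0.13 (SD between spots) at 3 h, 0.14 ± 0.09 at 6 h and 0.35 ± 0.08 at 12 h. Spots over 0 numbered 9 at 3 h, 9 at 6 h and 10 at 12 h, when the lowest was 0.23, the median 0.36 and the highest 0.48. These spots share 1 labelled sample per array and are technical repeats. Repeated spots do not correct for the scaling of a whole array, and with median centring the mean was -0.08 at 6 h and -0.04 at 12 h.

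HDAC2 (A_23_P122304, NM_001527) gave Cy5 signals of 3703, 4452, 3732 and 3146 units at 0, 3, 6 and 12 h. Its log2 change was 0.27, 0.45 and 0.27 at 3, 6 and 12 h, and -0.11 at 12 h with median centring, where the sample signal itself was lowest. A dim second probe of HDAC2 (A_33_P3309924), at 48 to 74 units, gave 0.18, 0.22 and 0.06. HDAC2 was over 0 in all 11 settings at 3 and 6 h and in 10 of 11 at 12 h.

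HDAC8, the class I enzyme that deacetylates the cohesin subunit SMC3, had 4 probes, all well above background. After loess all 4 were over 0 at every time, but they differed in size. The 3 h value of A_24_P254965 (0.28) came with a Cy3 reference of 98 units, against 178 in untreated cells. Its Cy5 channel alone gave -0.49 at 3 h. The probe that represents the gene (A_33_P3296789, NM_001166422), at 382.5, 513, 416.5 and 361 units in Cy5, gave 0.05, 0.14 and 0.06. A_23_P84922 (NM_018486), at 115, 174.5, 146 and 137 units, gave 0.34, 0.61 and 0.53. The other two, A_24_P254965 and A_33_P3296807, gave 0.31 and 0.31 at 12 h. The probes thus disagree on whether HDAC8 lay within the technical error of 0, and no direction is given for the gene, which with median centring was at -0.15 at 12 h.

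HDAC4, the class IIa deacetylase best known for its shuttling between nucleus and cytoplasm, could not be compared with untreated cells. Its only spot (A_23_P210048, NM_006037) was flagged as an outlier on the untreated array, in an area where 18.0% of spots were defective. The Cy3 reference there was 94 units, 0.167 of the median of the other arrays, against 551, 616.5 and 564 units at 3, 6 and 12 h. The Cy5 signal was 320 units on the flagged spot and 386, 329.5 and 243.5 units on the treated arrays.

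In the deposited table of normalized ratios, which keeps that spot, HDAC4 stands at -2.80, -2.88 and -2.94 from untreated. That value would be by far the lowest of the 10 genes, and it rests on the reference signal of a flagged spot. Between the treated arrays, where the spot carries no flag, the log2 change of HDAC4 was -0.05 from 3 to 6 h, -0.11 from 6 to 12 h and -0.16 from 3 to 12 h, sizes close to or below the technical SD of a single change from untreated.

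**Figure D4:**
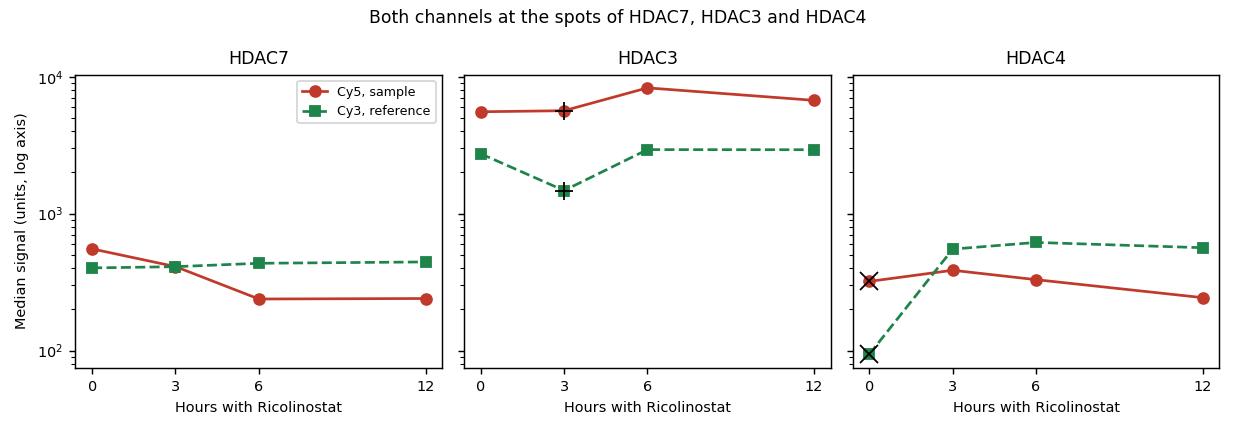
Median signal (log axis) of the Cy5 channel (sample, red circles) and the Cy3 channel (reference, green squares) at the spots of HDAC7, HDAC3 and HDAC4 at 0, 3, 6 and 12 h. Plus signs mark a spot in a damaged area and crosses the flagged spot. HDAC7 moved in the sample channel, from 553 to 240 units, whereas the low reference signals of HDAC3 at 3 h (1476 units) and HDAC4 in untreated cells (94 units) lay in damaged areas.

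HDAC5, a class IIa deacetylase regulated by the same kinases as HDAC4, had 1 probe (A_24_P125283, NM_001015053). Its Cy5 signal was 146, 208, 179 and 188 units at 0, 3, 6 and 12 h, higher on the 3 treated arrays than on the untreated one. The log2 change was 0.27, 0.18 and 0.24, which is 1.69, 1.52 and 2.02 technical SDs, and it was over 0 in 11 of 11 settings at each time, with a low of 0.05 at 12 h under median centring. With 1 probe, the settings on choice of probe, the dim filter and damaged areas return the reported value and add no separate support.

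HDAC9, a class IIa deacetylase that binds MEF2 factors, was near the limit of detection. The probe that represents it (A_22_P00007581, ENST00000406451) gave 49, 48, 36 and 36 units and changes of 0.08, 0.02 and 0.08. The second (A_23_P404162, NM_014707) was well above background in Cy5 on the untreated and 12 h arrays and not at 3 and 6 h, and the last (A_24_P206317, NM_058176) was not well above background on any array, at 23 to 27 units. Between the ways of processing, the 6 h value of HDAC9 ran from -0.63 to 0.02, so that no direction is given.

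HDAC10, the polyamine deacetylase of class IIb, was dim and lower at 6 and 12 h. Its probe (A_23_P368740, NM_032019) gave 78.5 units of Cy5 in untreated cells, 56 at 3 h, 50.5 at 6 h and 50 at 12 h. The log2 change was -0.05, -0.32 and -0.31, or 0.305, 2.65 and 2.62 technical SDs, and it was below 0 in all 11 settings at each time. With 1 probe, the settings on choice of probe, the dim filter and damaged areas return the reported value. The technical SD was not matched for brightness, and the 12 h value ran from -0.73 to -0.31 between settings. The offset of 50 units added before taking logs shrinks changes near background, and with an offset of 1 the value was -0.67 at 6 h.

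HDAC11, of class IV, had 3 dim probes. The one that represents the gene (A_23_P155360, NM_024827) gave 64, 69, 64 and 68.5 units and changes of -0.09, -0.06 and 0.05. The others gave changes of 0.03, 0.15 and 0.18 (A_33_P3417936) and of 0.01, 0.10 and 0.12 (A_33_P3417944). The probes do not share a sign at 3 and 6 h, and no direction is given for the gene.

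Ordered by change at 12 h the genes ran from HDAC3 (0.62) through HDAC1 (0.35), HDAC2 (0.27), HDAC5 (0.24), HDAC9 (0.08), HDAC8 (0.06), HDAC11 (0.05) and HDAC10 (-0.31) to HDAC7 (-0.87). The technical SD of a difference between genes of 1 spot each was 0.17 at 12 h. It does not hold for HDAC1, a mean of 10 spots, so pairs of neighbours with HDAC1 were not judged. Among the other pairs, neighbours differed by more than 2 such SDs between HDAC11 and HDAC10 and between HDAC10 and HDAC7, and not elsewhere. At 6 h only HDAC10 and HDAC7 did, and at 3 h only HDAC3 and HDAC2, where the HDAC3 spot was damaged. These gaps hold for the values as reported, and those with the dim HDAC10 depend on the processing. At 12 h Feature Extraction's signals gave -0.73 for HDAC10 and -0.89 for HDAC7. With median centring they stood at -0.43 and -1.17. Between the 6 and 12 h arrays, which hold no deacetylase spot in a damaged area, all 10 genes stayed within -0.18 (HDAC2) and 0.21 (HDAC1).

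**Figure D5:**
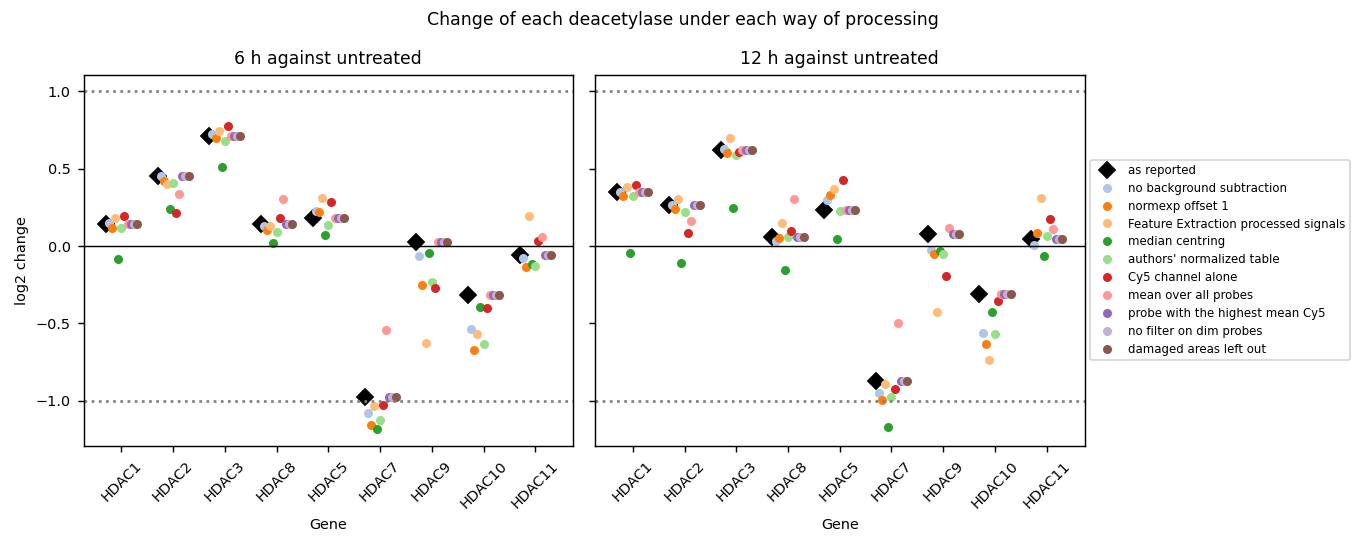
Log2 change from untreated of the 9 measured deacetylases at 6 h and 12 h under the way of processing reported here (black diamonds) and 10 alternatives (coloured points). HDAC7 and HDAC10 were below 0 and HDAC3 and HDAC5 above 0 under every setting at both times, whereas HDAC1, HDAC2 and HDAC8 crossed 0 at 12 h with median centring.

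HDAC6 itself, the main target of the drug, is given for comparison. Its brighter probe (A_23_P250455, NM_006044) gave 412.5 units of Cy5 in untreated cells, 357 at 3 h, 256 at 6 h and 208 at 12 h, with log2 changes of -0.41, -0.25 and -0.51. Its dim probe (A_33_P3320619) gave -0.25, 0.00 and -0.20. Transcript levels do not measure the activity of the enzyme, which the drug inhibits. The 12 h change of HDAC6 lay between those of HDAC10 and HDAC7.

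The genes whose changes over the 3 times were closest to HDAC3, by Euclidean distance among 19880 genes, were LRRC58 (0.83, 0.70 and 0.62), USP35 (0.81, 0.72 and 0.64) and BCL7A (0.82, 0.75 and 0.59). None of their spots lay in a damaged area. The 3 h spot of HDAC3 did, and its value entered the distance. These genes were thus matched in part to a change that was not measurable, and their likeness to HDAC3 at 3 h is not interpreted. Closest to HDAC7 were B3GALT4 (-0.51, -0.97 and -0.92), ZBTB2 (-0.55, -1.01 and -0.91) and SH2D2A (-0.56, -0.93 and -0.85). The likeness rests on 3 values per gene from the same 4 arrays.

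The partners of the deacetylases were described from 10 lists of 82 genes, of which 81 were measured. At least 2-fold higher were 6 genes at 3 h, 7 at 6 h and 5 at 12 h, and at least 2-fold lower were 0, 0 and 1. These counts stand beside the shares of all genes given above, and the medians were 0.20, 0.23 and 0.21, beside 0.01, 0.02 and 0.01 over all genes. Without spots in damaged areas the number at least 2-fold higher was 3 at 3 h and 3 at 12 h.

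In the SIN3 complex, which carries HDAC1 and HDAC2, 13 of 13 genes were over 0 at 3 h, 12 at 6 h and 13 at 12 h (51.4%, 52.7% and 52.5% of all genes), with medians of 0.43, 0.57 and 0.43. With median centring 13, 10 and 9 were over 0, with medians of 0.57, 0.47 and 0.18. At least 2-fold higher were 3, 3 and 2 of them. The counts over 0 and the medians at 3 h include SUDS3 (0.86), whose 3 h spot was damaged. Its Cy3 reference there was 65 units, against 220 in untreated cells. SAP30, a core subunit, had the highest 12 h change, with 4053 units of Cy5 in untreated cells and 7721, 8083 and 6888 at 3, 6 and 12 h, and log2 changes of 1.03, 1.38 and 1.27. ARID4A, a chromatin-binding subunit named after its values were seen, was at 1.75, 1.70 and 1.15. The lowest was BRMS1L at 0.03, -0.04 and 0.04. The scaffold SIN3A was at 0.20, 0.10 and 0.10, below the median of its list.

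The NuRD list of 11 genes had medians of 0.12, 0.13 and -0.02 (0.20, -0.01 and -0.36 with median centring), with 1 gene at least 2-fold higher at each time and 1 at least 2-fold lower at 12 h. MTA1, the highest (2.60, 2.39 and 2.25), had a damaged spot on the untreated array, at 37 units against 2084 to 2808 on the treated arrays. MBD3, the lowest at 12 h (0.31, -0.82 and -1.21), had a damaged spot at 3 h, and its Cy5 signals of 1177 units in untreated cells, 521.5 at 6 h and 363 at 12 h came from spots outside such areas.

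In the CoREST list all 6 genes were over 0 at each time (6, 4 and 3 with median centring), beside the same shares of all genes, and 1 was at least 2-fold higher at 3 h, with RCOR2 the highest (1.34, 0.90 and 0.92), its 3 h spot damaged, and RCOR3 the lowest (0.01, 0.04 and 0.15). Averaged over its probes, RCOR3 was at 0.37 at 12 h. The untreated spot of PHF21A, another of the 6, was damaged. The 5 genes of the corepressor complex of HDAC3 had medians of 0.13, 0.05 and 0.12 (0.25, -0.12 and -0.15 with median centring). Over 0 were 4, 3 and 3 of them, beside the same shares of all genes, or 5, 1 and 1 with median centring. The 3 h counts include a gene whose 3 h spot was damaged. GPS2, a subunit and the highest of that list at 12 h, was at 0.13, 0.41 and 0.64, with none of its spots damaged. The mitotic complex MiDAC held 0 genes changed 2-fold at any time, and the range at 12 h was -0.33 (TRERF1) to 0.68 (ELMSAN1).

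For class IIa, the 4 MEF2 factors had medians of 0.52, 0.84 and 0.47 (0.68, 0.70 and 0.19 with median centring), with 1 gene at least 2-fold higher at 6 h, and MEF2C was the highest at 12 h (0.63, 1.24 and 0.90, from 51.5 units of Cy5 in untreated cells to 73, 155.5 and 97). MEF2B was the lowest at -0.12, 0.12 and -0.06, and its untreated spot was damaged. With its other probe averaged in, MEF2B was at 0.18 at 12 h. The 6 measured genes of 7 for 14-3-3 proteins held 0 changed 2-fold and stayed between -0.20 (YWHAH) and 0.26 (YWHAG) at 12 h. Damaged areas touched YWHAH on the untreated and 3 h arrays. Among the 11 kinases that phosphorylate class IIa enzymes, 1 was at least 2-fold higher at each time, and SIK3 was that gene (1.05, 1.35 and 1.08). CAMK2D was the lowest (-0.64, -0.55 and -0.51), and the untreated spots of both were damaged. Averaged with its other probe, CAMK2D was at -0.19 at 12 h.

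The last lists follow the substrates of HDAC8 and HDAC10. The 11 genes of cohesin and its acetylation ran at 12 h from -0.89 (STAG1, untreated spot damaged) to 0.36 (ESCO2, an acetyltransferase of SMC3), with a median of -0.12 (-0.31 with median centring) and 0 genes changed 2-fold. Of the 10 genes of polyamine metabolism, 1 was at least 2-fold higher at 6 h and 1 at 12 h, and 0 were 2-fold lower. SAT1, which acetylates spermidine and spermine, gave 3337 units of Cy5 in untreated cells and 4800, 7696 and 9315 at 3, 6 and 12 h, or log2 changes of 0.63, 1.44 and 1.92. These values are of the probe that represents SAT1. It has 2 other probes, and the mean over its measured probes was 1.49 at 12 h. SRM, which makes spermidine, gave 4380, 4451, 3008 and 2331 units and log2 changes of -0.26, -0.55 and -0.78. None of these spots of SAT1 and SRM was damaged.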

How the data were processed

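The 4 two-colour arrays held RNA of SUM149 cells at 0, 3, 6 and 12 h with 2.5 uM of Ricolinostat, 1 array per time. For each array the authors deposited spot intensities and local backgrounds, extracted with Agilent Feature Extraction 12.0.1.1, with flags for outlier spots and for signals well above background. A further table deposited by the authors holds normalized log2 ratios with gene symbols, whose normalization is not given in the sources used here. It was used for the symbols and as an alternative, and columns of sample values not used numbered 0. Both were joined by row and column of the array.

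Median intensities were corrected by normexp (offset 50), control spots were left out, flagged outlier spots set aside, and arrays normalized by loess and Aquantile in limma 3.58.1 (R 4.3.3). Repeated spots of 1 probe entered as their mean, and of several probes the one brightest in Cy3 on average stood for the gene. Spots were called damaged in windows of 13 rows and 7 columns where at least 10% of spots were flagged or more than 2-fold from the 4-array median in Cy3. The normalization was tested on simulated data. Later steps used Python 3.11.15, numpy 2.4.6 and pandas 2.3.3.

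The genes and the partner lists were chosen with earlier results of these data known. Named were every probe of the 10 deacetylases, HDAC6, the highest and lowest gene of each partner list at 12 h among genes measured on all arrays, and the 3 genes closest to the highest and the lowest deacetylase. The lowest gene of 1 list is not reported here. ARID4A and SIN3A were named after seeing their values. Promoter windows came from RefSeq (GRCh38.p14), and no coordinates of the probes, designed on another build, are given. Alternatives covered background correction, normalization, the Cy5 channel alone, the deposited table, the choice of probe, the dim filter, damaged areas and the threshold.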

Additional observations from a re-analysis of the deposited data

How the results depend on the processing

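With 1 array per time, no replicate could be left out. No paired analysis was possible because only 1 array exists at any time, and no result comes from a test. Of 269 alternative values of single deacetylases, 29 had the opposite sign, 7 of them with median centring and 7 with the Cy5 channel alone. Of those 29, 1 started from a change of at least 1.5-fold (HDAC3 at 3 h, -0.12 from the Cy5 channel alone, where the reference spot was damaged). Apart from that one, 219 moved by less than the technical SD and 49 by more. For HDAC1, HDAC3, HDAC5 and HDAC10, with 1 probe each, the settings on choice of probe and the dim filter always return the reported value. Such values count among the 219. The signals of HDAC9, HDAC10 and HDAC11 lay close to background.

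No deacetylase was at least 2-fold lower as reported. At 6 h 1 was (HDAC7) without background subtraction, with a normexp offset of 1, with Feature Extraction's processed signals, with median centring and with the Cy5 channel alone, and at 12 h 1 was with median centring. The deposited table gave 1 at 3 h, 2 at 6 h and 1 at 12 h, each time including HDAC4 with its flagged spot. At 1.5-fold 1 was higher at each time, and 1 was lower at 6 h and 1 at 12 h, beside the shares of all genes given above. The median over the deacetylases went to -0.043 with median centring and -0.017 in the deposited table at 6 h, and to 0.30 with Feature Extraction's signals and -0.063 with median centring at 12 h.

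Among partner genes, the number at least 2-fold higher went from 6 to 3 at 3 h and from 5 to 3 at 12 h without damaged areas, and to 3 at 12 h with median centring. It was 15, 18 and 15 at 1.5-fold, beside 6.87%, 9.4% and 8.09% of all genes at 3, 6 and 12 h. At 4-fold it was 1 at each time (MTA1, whose untreated spot was damaged), and no share of all genes is given there. The number at least 2-fold lower, 0 at 3 h, was 2 with an offset of 1, 2 with Feature Extraction's signals, 1 in the deposited table, 3 with the Cy5 channel alone and 1 at 1.5-fold. At 6 h, 0 as reported, it was 1 without background subtraction, with an offset of 1, with Feature Extraction's signals, with median centring, in the deposited table and with the Cy5 channel alone, and 2 at 1.5-fold. At 12 h, 1 as reported, it was 2 without background subtraction, with an offset of 1, with Feature Extraction's signals and in the deposited table, 4 with median centring, 5 at 1.5-fold and 0 at 4-fold. Of all genes, 1.95%, 4.42% and 5.13% were at least 1.5-fold lower at 3, 6 and 12 h. The cause of the moves between settings was not tested.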
